A study of Mus musculus with 24 samples.

Results

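The genotype difference in obesity was examined in epididymal white adipose tissue (eWAT), the visceral fat pad beside the testis, of male mice fed a high-fat diet (HFD). The comparison was chosen by diet and genotype label and holds 12 of the 24 libraries of the series, 6 from *Lama4* AKO mice and 6 from *Lama4* fl/fl mice, all kept for 20 weeks on a 45% fat diet. Both groups carried *Lama4* alleles in which exon 3 was flanked by loxP sites, and the AKO mice also carried Cre recombinase driven by the adiponectin promoter, which is active in adipocytes. The fl/fl mice were littermates without Cre. RNA came from the whole fat pad, so vessels and other non-adipocyte cells kept intact *Lama4* in both groups. Messenger RNA was counted by QuantSeq, which reads a tag near the 3′ end of each transcript, and levels are given as CPM, the count of a gene over the library total scaled with TMM factors. The other 12 libraries, from chow-fed mice of the same genotypes, were used to share the estimate of spread and to ask whether a difference seen on HFD was also present in other mice.

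Laminins are trimeric proteins that form the sheet-like basement membrane around each adipocyte, and *Lama4* encodes the alpha chain found in most adipocyte laminin. Basement membrane tethers the cell through integrins and other laminin receptors and has to be remodelled as the cell enlarges with stored lipid. In obese epididymal fat, macrophages gather around dying adipocytes, collagen accumulates between cells and the lipid-making program of the adipocyte declines.

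The part removed by Cre is shown here because the readout does not cover it. Exon 3 of *Lama4* lies at chr10:39010998-39011122 (GRCm38, plus strand), within the coding sequence, and is 125 bases long, which is not a multiple of 3. In the 38-exon coding transcript of GENCODE M21 it reads, 5′ to 3′ and with no base marked:
Lama4 exon 3: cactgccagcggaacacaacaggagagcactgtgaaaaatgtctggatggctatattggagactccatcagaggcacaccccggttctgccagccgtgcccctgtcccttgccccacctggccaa

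A 3′ tag counts transcripts that lack this exon as well as those that hold it, so the *Lama4* count does not check the deletion. The 6 fl/fl libraries ranged from 32.4 to 135 CPM for *Lama4* with a median of 78.7 CPM, and the 6 AKO libraries ranged from 36.4 to 92.5 CPM with a median of 44.3 CPM. The groups overlapped, since fl/fl replicate 1 was lower than all AKO libraries and AKO replicate 6 was far above the other 5. On the fitted scale *Lama4* was lower in AKO mice by a log2 fold change of −0.69 (SE 0.35, adjusted p = 0.347 from edgeR). An exact two-sided permutation test of the mean log2 CPM, 5.61 ± 0.47 against 6.19 ± 0.82 (SD, n = 6 each), gave p = 0.152, where 0.00216 was the smallest value possible. Without fl/fl replicates 3, 4 and 6 the fitted value was 0.14 (adjusted p = 0.939), so the direction rested on those 3 mice. On chow the *Lama4* log2 fold change was 0.11 (SE 0.34, adjusted p = 0.98 from edgeR). The study reported a knockdown of *Lama4* by quantitative PCR in eWAT of chow-fed AKO mice, which the chow counts do not show. The reason was not tested.

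**Figure D1:**
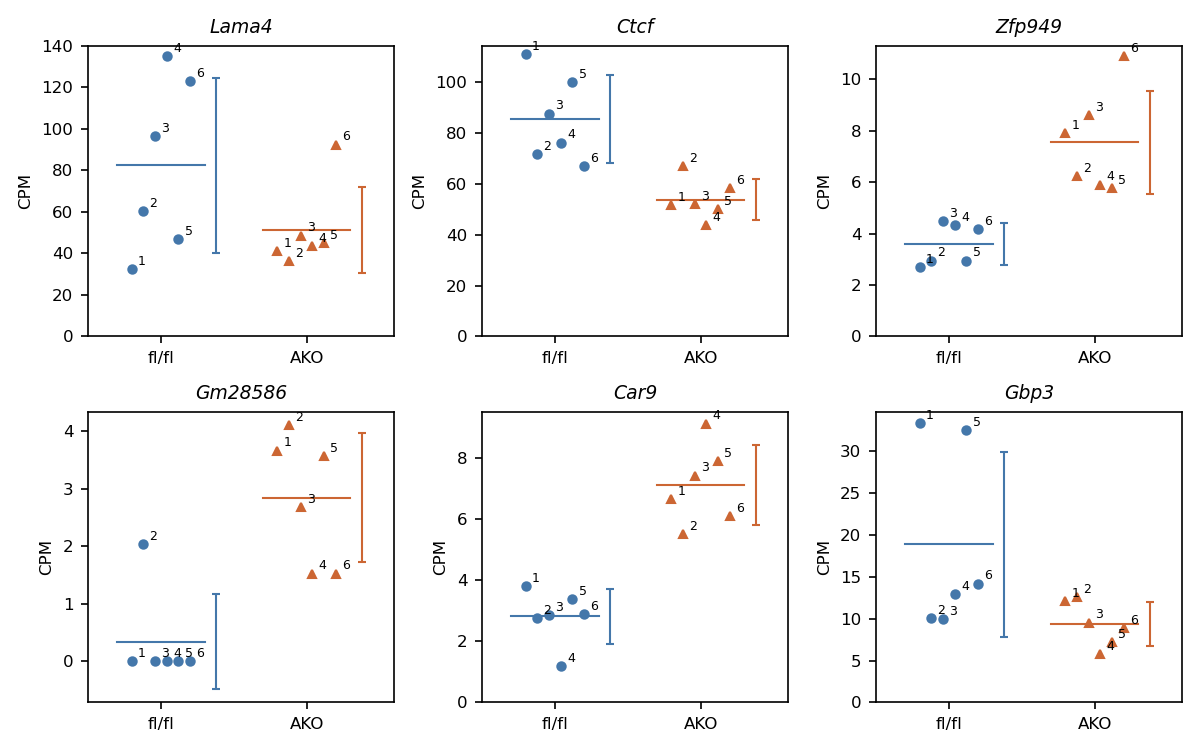
Levels in CPM (y axis) of 6 genes in each HFD library of Lama4 fl/fl (circles) and Lama4 AKO (triangles) mice, numbered by replicate, with the group mean (line) and SD (bar, n = 6 each). Lama4 and Gbp3 overlapped between genotypes, Zfp949 and Car9 did not, and Gm28586 was at 0 in all fl/fl libraries but replicate 2.

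The libraries differed between genotypes in ways that touch every result. Total counts were 12450619 to 16787814 in fl/fl and 9156492 to 11640690 in AKO libraries, with no overlap, and the part of depth in the results was not tested. The fl/fl mice were also the more varied group, with a median SD per gene of 0.49 log2 CPM against 0.29 in AKO mice, and 83.2% of genes had the larger SD in fl/fl. On the first principal component of all 24 libraries, which held 45.8% of the variance, fl/fl replicates 4 and 6 lay at −76.1 and −60.4 and replicate 3 at −9.88, while fl/fl replicates 1, 2 and 5 lay between 48.2 and 73.5 and the AKO mice between 0.85 and 61.5. Values without fl/fl 3, 4 and 6 are therefore given below as the comparison with 3 fl/fl mice. The fit behind them also left out 2 chow libraries. These values stand beside each fold change or list median that turned or moved by over 1.5 times. One library also went against its label for *Gm28586*, an intronic transcript of chromosome 9 (100530616 to 100531071). It had 17 to 50 counts in all 6 AKO libraries, 33 counts in fl/fl replicate 2 and 0 in the other 5 fl/fl libraries. Replicate 2 is 1 of the 3 fl/fl mice in the smaller comparison, and whether its genotype label is right was not tested.

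A gene was called when it differed by at least 1.5-fold at an unadjusted p of at most 0.001 and reached a mean of 2 CPM in the higher group. Of 15020 genes tested, 26 were called, which is 0.173% of all genes, 13 higher in AKO mice (0.0866%) and 13 lower (0.0866%). None reached an adjusted p of 0.05 with edgeR, where the lowest was 0.0625, while 2227 genes (14.8%) had an unadjusted p under 0.05, 876 higher (5.83%) and 1351 lower (8.99%). At the same adjusted limit limma-voom gave 1 gene, DESeq2 40 and limma-voom with sample weights 2563. The call rule gave 30 genes with limma-voom, of which 22 were higher, and 81 with DESeq2, of which 20 were higher, so the balance of directions depended on the tool. The median log2 fold change of all genes was −0.03 and the median standard error 0.24. Unless a p is printed, each gene named below had an unadjusted p under 0.05 on HFD, where the adjusted p ran from 0.0625 to 0.337.

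The called genes are described by their known roles, and no enrichment was tested. In 11 of the 26 genes the 6 AKO libraries lay wholly outside the 6 fl/fl libraries, 8 above and 3 below, which is a description because the same contrast chose them. Over all genes tested 0.533% separated in this way.

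Among genes lower in AKO mice, *Gm43581* came first. It is an intronic transcript of chromosome 3 (104642994 to 104645857) of unknown role. The fl/fl libraries had 1.55 to 3.27 CPM (median 2.27) and the AKO libraries 0.36 to 1.02 CPM (median 0.77), a log2 fold change of −1.71 (SE 0.29, adjusted p = 0.0625 from edgeR). The groups did not overlap, but the level is low in both.

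*Ctcf* encodes the zinc finger protein that, with the cohesin ring, anchors chromatin loops. Its level was 66.9 to 111 CPM (median 81.9) in fl/fl and 43.8 to 67.1 CPM (median 51.8) in AKO libraries. Of the AKO libraries 5 lay below every fl/fl library and replicate 2 overlapped the lowest. The log2 fold change was −0.67 (SE 0.15), and it was −0.81 (adjusted p = 0.0981) with 6 AKO against 3 fl/fl mice. Among the 12 fits that each left out 1 HFD mouse, the call was lost only without fl/fl replicate 1.

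Of 12 genes of cohesin, its loader and chromatin architecture, *Ctcf* was called, 6 including *Ctcf* were lower at an unadjusted p under 0.05 and none was higher. The median of the list was −0.41. The cohesin loader subunit *Mau2* was at 11.2 to 28.6 CPM (median 18.2) in fl/fl and 5.49 to 15.4 CPM (median 7.43) in AKO libraries (log2 fold change −1.08). The cohesin core subunit *Smc3* was at 44.0 to 133 CPM against 26.3 to 85.9 CPM (−0.97), and the ring subunit *Stag2* was at 57.1 to 113 CPM against 56.5 to 89.6 CPM (−0.33). These groups overlapped, and against 3 fl/fl mice the list's median was −0.04, with *Mau2* at −0.48 and *Smc3* at −0.22 while *Stag2* was at −0.39. In that comparison 2 of the 12 genes, *Ctcf* and *Stag2* (adjusted p = 0.428), were lower at an unadjusted p under 0.05.

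Centrosomal and ciliary proteins gave 2 called genes, both lower. *Cspp1*, a spindle pole and cilium protein, was at 25.8 to 40.5 CPM (median 34.6) in fl/fl and 18.0 to 25.1 CPM (median 19.9) in AKO libraries, with no overlap (log2 fold change −0.66, SE 0.13, adjusted p = 0.198 from edgeR). *Cep162*, a protein of the base of the cilium, was at 15.6 to 28.9 CPM (median 25.1) against 9.02 to 18.4 CPM (median 10.9), and 1 AKO library reached into the fl/fl range (−0.98, SE 0.22). Of 30 genes on the list of cilium and centrosome proteins, these 2 and 1 other were lower and 1 was higher at an unadjusted p under 0.05, and the median was −0.11. With 3 fl/fl mice 3 were higher and 2 lower, with a median of 0.03. *Pde6d*, which ferries lipid-modified proteins to the cilium, was called in the other direction, at 18.4 to 23.7 CPM in fl/fl and 26.1 to 39.0 CPM in AKO libraries (0.63, SE 0.16), again with no overlap.

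Mitochondrial and lipid enzymes were called in both directions. *Stoml2*, a scaffold protein of the mitochondrial inner membrane, was at 17.6 to 38.6 CPM (median 34.7) in fl/fl and 14.5 to 20.2 CPM (median 16.5) in AKO libraries (log2 fold change −0.85, SE 0.18), with 4 AKO libraries below all fl/fl libraries, and it was −0.51 with 3 fl/fl mice. *Pemt*, which makes phosphatidylcholine by methylation, was at 5.59 to 15.0 CPM against 3.16 to 8.05 CPM (−1.01, SE 0.24). *Aacs*, which feeds acetoacetate into lipid synthesis, was at 10.4 to 69.4 CPM against 8.61 to 14.6 CPM (−1.60, SE 0.39). The call of *Aacs* was lost without fl/fl replicate 4 or 6 and without AKO replicate 1 or 5, and its fold was −0.64 (adjusted p = 0.491) against 3 fl/fl mice.

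*Acsl4*, the acyl-CoA synthetase that prefers arachidonic acid, was instead higher, at 63.2 to 96.5 CPM (median 80.0) in AKO and 42.8 to 64.3 CPM (median 53.1) in fl/fl libraries (0.59, SE 0.15). All AKO libraries but 1 lay above every fl/fl library. *Rpusd4*, which modifies mitochondrial ribosomal RNA, was at 12.9 to 19.6 CPM against 9.87 to 13 CPM (0.62, SE 0.16). The glycolipid transfer protein *Plekha8* was at 10.4 to 13.5 CPM against 6.27 to 8.62 CPM with no overlap (0.66, SE 0.15).

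The other genes called lower were *Ubqln4*, a carrier of ubiquitinated proteins to the proteasome, *Ndfip1*, an adaptor of ubiquitin ligases, *Wrnip1*, a protein of DNA replication, *Rgs7*, which turns off G-protein signals, *Paip2b*, a repressor of translation, and the noncoding *9330159M07Rik*. Their log2 fold changes ran from −0.69 for *Ndfip1* to −1.72 for *9330159M07Rik*, and only *Ndfip1* separated the groups, at 14.4 to 24.3 CPM in fl/fl and 9.78 to 14.0 CPM in AKO libraries. With 3 fl/fl mice the fold of *9330159M07Rik* was −0.38 (adjusted p = 0.727), that of *Paip2b* moved from −1.57 to −0.82, that of *Rgs7* from −1.53 to −0.72 and that of *Ndfip1* to −0.44.

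Among genes called higher, *Tpra1*, a membrane protein first named for its expression in adipocytes, was at 35.1 to 48.3 CPM (median 39.7) in fl/fl and 54.0 to 92.2 CPM (median 74.9) in AKO libraries, with no overlap (log2 fold change 0.89, SE 0.20). *Lhfp*, a membrane protein gene first found at a lipoma breakpoint, was at 18.5 to 32.2 CPM (median 22.9) against 34.3 to 45.5 CPM (median 42.5), again apart (0.76, SE 0.18). *Ncs1*, a calcium sensor, was at 2.21 to 4.72 CPM against 5.67 to 10.9 CPM (1.16, SE 0.29). *Ptgfrn*, a partner of tetraspanins, was at 38.2 to 51.3 CPM against 51.7 to 77.3 CPM (0.59, SE 0.14). All 4 genes lay higher in every AKO library than in any fl/fl library.

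*Kctd1*, a transcriptional repressor, was at 1.34 to 2.23 CPM against 2.76 to 3.66 CPM (0.74, SE 0.17) and also separated the groups. The ubiquitin ligase subunit *Fbxo10* (0.77), the actin-binding *Pfn2* (0.62) and *Lamtor3*, part of the lysosomal platform for mTORC1 (0.62), overlapped in 1 or 2 AKO libraries. The remaining gene, *Zfp949*, is described with the chow-fed mice.

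**Figure D2:**
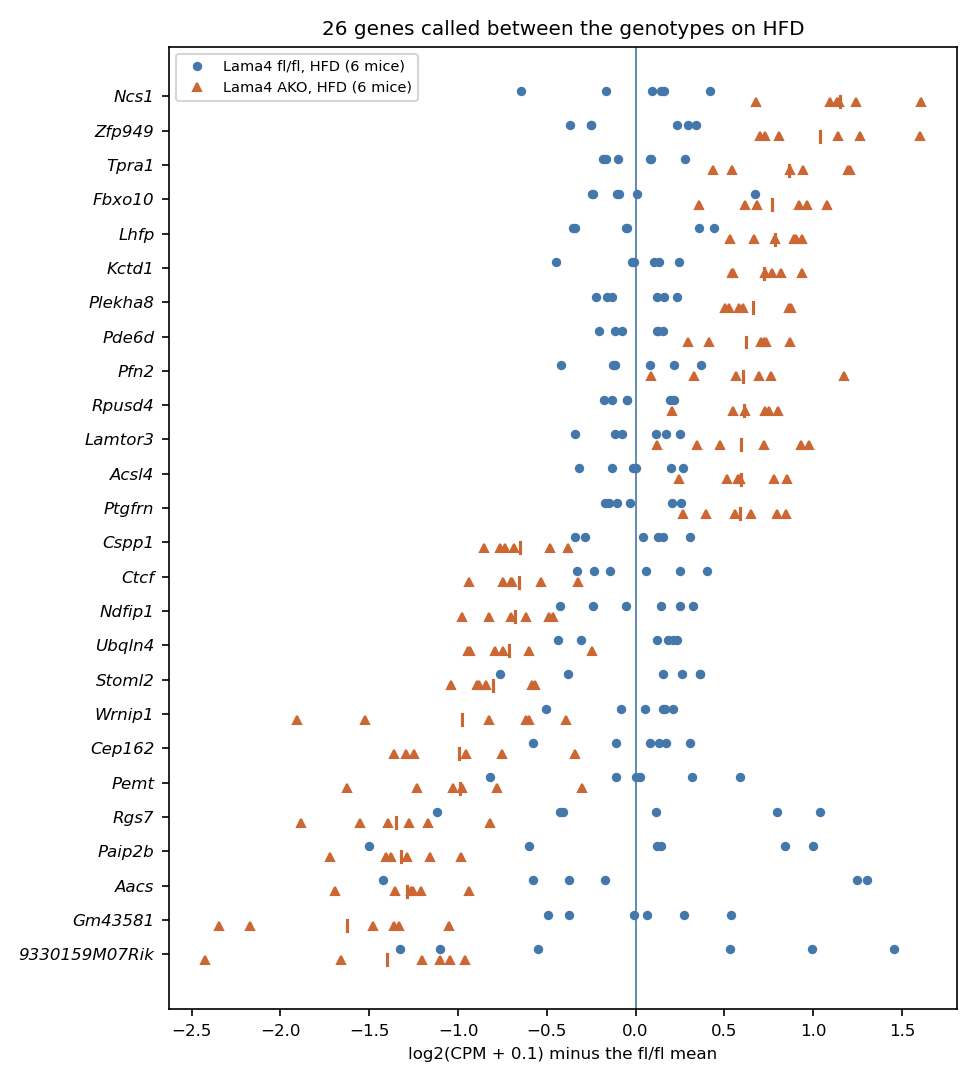
Levels of the 26 genes called on HFD in each library, as log2(CPM + 0.1) minus the fl/fl mean (x axis), for 6 Lama4 fl/fl mice (circles) and 6 Lama4 AKO mice (triangles, with a bar at their mean). The 13 genes at the top were higher and the 13 at the bottom lower in AKO mice, and fl/fl mice spread widely in Aacs, Paip2b, Rgs7 and 9330159M07Rik.

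Adipocyte genes were on the lower side on average in AKO mice, but this followed individual fl/fl mice. Of 20 adipocyte identity genes none was called, 11 were lower and none higher at an unadjusted p under 0.05, and the median log2 fold change was −0.85. *Adipoq*, the adipocyte hormone adiponectin, was at 826 to 5970 CPM (median 1460) in fl/fl and 764 to 1770 CPM (median 1030) in AKO libraries, so the groups overlapped over nearly the whole AKO range (−1.16, SE 0.50). *Lep* was at 267 to 3300 CPM against 381 to 1550 CPM (−1.22), and *Plin1*, the coat protein of the lipid droplet, at 306 to 1320 CPM against 329 to 730 CPM (−0.72, adjusted p = 0.345).

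The mean log2 CPM of the adipocyte identity genes was 9.82 in fl/fl replicate 4 and 9.48 in replicate 6, 8.58 in AKO replicate 6, and between 7.45 and 8.52 in the other 9 mice. Their summed level was 20200 to 90500 CPM in fl/fl and 21200 to 43400 CPM in AKO libraries and all 20 markers were among the genes tested. With 6 AKO against 3 fl/fl mice the list's median was 0.03 and no gene had an unadjusted p under 0.05. *Adipoq* was then at 0.08, *Lep* at 0.22 and *Plin1* at 0.15. In whole tissue, fewer cells of a type and less RNA per cell cannot be told apart.

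*Retn*, encoding resistin, was at 177 to 2090 CPM (median 415) in fl/fl and 58.7 to 256 CPM (median 161) in AKO libraries (−2.50, SE 0.71). With 3 fl/fl mice it was at −1.13 (adjusted p = 0.572). *Car3*, an adipocyte carbonic anhydrase, was at −1.86 in the main comparison and 0.02 against 3 fl/fl mice.

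Genes of the lipid-making program were on the lower side in the same comparison. Of 15 genes of de novo lipogenesis, 11 were lower and 1 higher at an unadjusted p under 0.05, with a median of −0.87, and against 3 fl/fl mice the median was −0.01 with 0 in either direction. *Fasn*, fatty acid synthase, was at 229 to 1690 CPM (median 449) in fl/fl and 188 to 799 CPM (median 242) in AKO libraries (−1.18, SE 0.46). *Mlxipl*, the glucose-sensing transcription factor ChREBP, was at 12.7 to 42.7 CPM against 9.24 to 18.2 CPM (−0.97, SE 0.31), and its known target *Thrsp* at 123 to 1080 CPM against 68.4 to 253 CPM (−1.83, SE 0.57). *Fads1*, a desaturase of polyunsaturated fatty acids, went the other way, at 29.6 to 58.4 CPM against 41.1 to 75.2 CPM (0.56, SE 0.17). Without the other 3 fl/fl mice *Fasn* was at 0.21, *Mlxipl* at −0.55, *Thrsp* at −0.66 and *Fads1* at 0.32.

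Of the 21 sterol synthesis genes and SREBF2 targets, 4 were lower (*Insig1* −1.26, *Sc5d* −0.80, *Pmvk* −0.72 and *Nsdhl* −0.58) and none higher at an unadjusted p under 0.05, with a median of −0.38. *Insig1*, the sterol-sensing brake on SREBP activation, was at 26.9 to 176 CPM (median 68.9) in fl/fl and 30.2 to 53.7 CPM (median 35.3) in AKO libraries. On chow *Insig1* was at 1.24 (unadjusted p under 0.05, adjusted p = 0.744) and the difference between diets was −2.50 (adjusted p = 0.22). The median of the list on chow was 0.44, with 7 genes higher at an unadjusted p under 0.05. Against 3 fl/fl mice *Insig1* on HFD was at −0.06, *Pmvk* at −0.27, *Sc5d* at 0.09 and *Nsdhl* at 0.08, and the list's median was 0.00284.

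Lists of fuel oxidation were on the lower side with all 6 fl/fl mice but not against 3 fl/fl mice. The lists of branched-chain amino acid catabolism (21 genes), fatty acid beta-oxidation (20), insulin signalling (18) and peroxisome biogenesis (16) had medians of −0.38, −0.31, −0.39 and −0.22 and held 4, 5, 6 and 5 lower genes at an unadjusted p under 0.05. Their medians against 3 fl/fl mice were 0.06, 0.12, 0.08 and 0.06. *Akt1*, a kinase of the insulin pathway, was at 185 to 336 CPM in AKO and 119 to 267 CPM in fl/fl libraries (0.65, SE 0.21), whereas *Pik3r1*, the regulatory subunit of PI3-kinase, was at 32.1 to 83.1 CPM against 37.0 to 146 CPM (−0.95, SE 0.34). *Akt1* was at 0.40 and *Pik3r1* at 0.04 with 3 fl/fl mice.

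**Figure D3:**
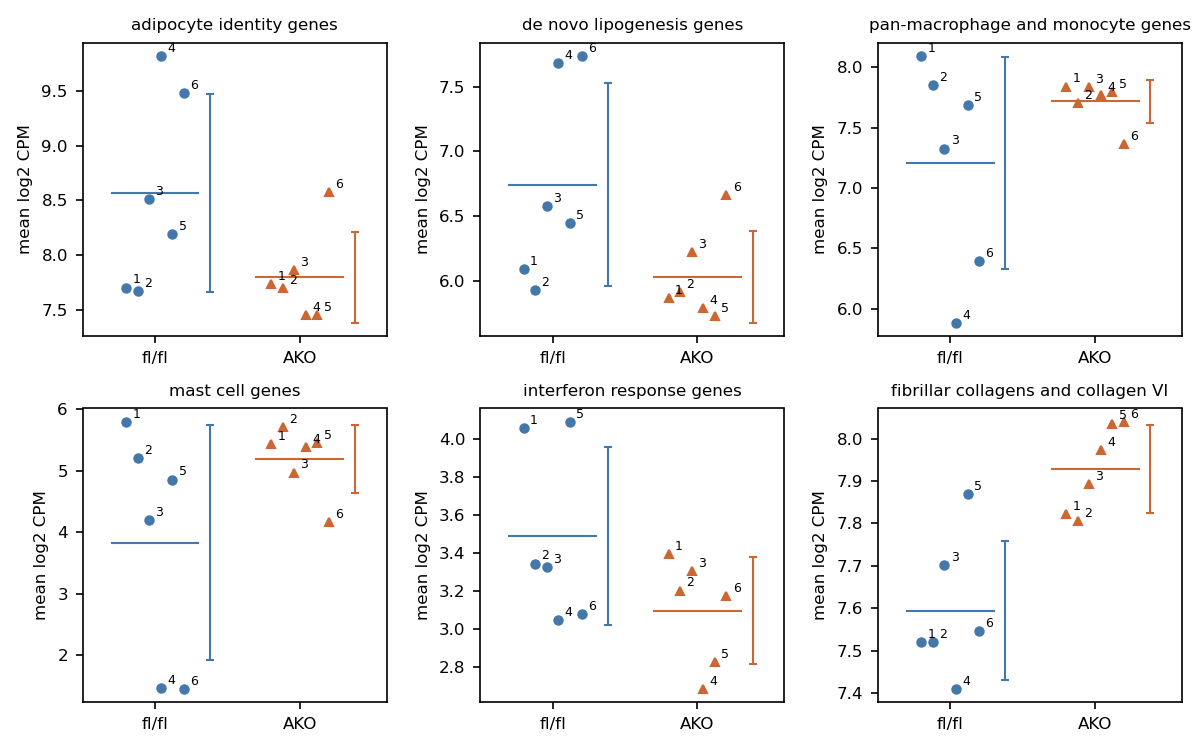
Mean log2 CPM (y axis) over the genes of 6 lists in each HFD library of Lama4 fl/fl (circles) and Lama4 AKO (triangles) mice, numbered by replicate, with the group mean (line) and SD (bar, n = 6 each). Adipocyte and lipogenesis genes were highest in fl/fl replicates 4 and 6, where mast cell genes were lowest at 1.48 and 1.46. The collagen list was between 7.81 and 8.04 in AKO and between 7.41 and 7.87 in fl/fl mice.

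Macrophage and mast cell genes ran opposite to adipocyte genes across the same libraries. The mean log2 CPM of 16 pan-macrophage genes was 5.88 and 6.40 in fl/fl replicates 4 and 6 and 7.33 to 8.10 in the other 10 mice. Their summed level was 2810 to 15500 CPM in fl/fl and 8610 to 16700 CPM in AKO libraries. The median log2 fold change was 0.35, with 2 of 16 higher at an unadjusted p under 0.05, but −0.08 with 0 in either direction against 3 fl/fl mice. *Adgre1*, encoding F4/80, was at 73.5 to 606 CPM in fl/fl and 238 to 432 CPM in AKO libraries (0.28, SE 0.49, adjusted p = 0.785) and was at −0.28 with 3 fl/fl mice.

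Lipid-associated macrophage genes, which mark macrophages that take up lipid from dying adipocytes, were all 16 on the higher side, with a median of 0.67 and 2 at an unadjusted p under 0.05. *Ctsl*, a lysosomal protease, was at 844 to 1280 CPM in fl/fl and 1080 to 2150 CPM in AKO libraries (0.61), and *Cstb*, a protease inhibitor, was at 334 to 738 CPM against 664 to 1100 CPM (0.69). The median was 0.28 against 3 fl/fl mice, with none at an unadjusted p under 0.05.

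Mast cell genes (12 tested, summed level 64.2 to 2400 CPM in fl/fl and 635 to 2070 CPM in AKO libraries) had a median of 0.65. *Gata2*, a transcription factor of mast cells, was at 5.42 to 15.0 CPM against 8.86 to 19.5 CPM (0.71), and *Slc6a4*, the serotonin transporter, at 1.04 to 8.50 CPM against 3.67 to 13.1 CPM (1.02). The median of the list was −0.07 against 3 fl/fl mice, with *Gata2* at 0.43 and *Slc6a4* at 0.41.

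Resident macrophage genes went the other way from the pan-macrophage list. Of 11 genes 3 were lower and 1 higher at an unadjusted p under 0.05, with a median of −0.48 and, against 3 fl/fl mice, −0.35. The lectin receptor *Cd209g* was at 5.57 to 22.1 CPM (median 13.6) in fl/fl and 3.57 to 7.07 CPM (median 4.71) in AKO libraries (−1.45, SE 0.41), and the hemoglobin scavenger receptor *Cd163* at 18.4 to 51.7 CPM against 11.7 to 26.2 CPM (−0.86). *Gas6*, a ligand of the receptors that clear dying cells, was the higher gene, at 152 to 243 CPM in AKO and 64.9 to 151 CPM in fl/fl libraries (0.56, SE 0.17). Its groups did not overlap, though the highest fl/fl and the lowest AKO library nearly met. *Mertk*, a receptor for *Gas6* protein, was at 69.5 to 100 CPM against 38.8 to 87.6 CPM (0.48, and 0.18 with 3 fl/fl mice).

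Interferon response genes were on the lower side in AKO mice against all 6 fl/fl mice and against 3. The 3 include fl/fl replicates 1 and 5, the highest mice for this list. Of 28 genes tested, 7 were lower and none higher at an unadjusted p under 0.05, and the median was −0.47. Against 3 fl/fl mice 11 were lower, where 1653 of all 14863 genes tested passed that limit in either direction, and the median was −0.66. None was called. On chow, where the mice are others, the median was 0.17 with 0 genes in either direction.

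*Cxcl9*, a chemokine that attracts T cells, was at 34.2 to 145 CPM (median 66.1) in fl/fl and 13.4 to 53.6 CPM (median 27.4) in AKO libraries, 4 of which were below all fl/fl libraries (−1.42, SE 0.60). It is not on the interferon list but on that of cytokines and chemokines, where 2 of 26 genes were higher and 1 lower at an unadjusted p under 0.05. The median of the cytokine list was 0.17, and −0.12 with 3 fl/fl mice (1 higher, 3 lower). *Gbp7*, a guanylate-binding protein of cell-autonomous defence, was at 42.4 to 76.1 CPM (median 60.1) against 21 to 61.7 CPM (median 24.8), with 5 AKO libraries below all fl/fl (−0.95, SE 0.35). Its relative *Gbp3* was at 9.98 to 33.4 CPM (median 13.6) against 5.81 to 12.6 CPM (median 9.20) (−1.01, SE 0.43). For *Gbp3* fl/fl replicates 1 and 5 stood at 33.4 and 32.6 CPM, while the other 4 fl/fl mice lay between 9.98 and 14.2 CPM.

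The interferon list as a whole was also highest in fl/fl replicates 1 and 5, with mean log2 CPM of 4.06 and 4.09. All other HFD mice lay between 2.69 and 3.40, which is the range of the AKO mice. Within it, fl/fl replicates 2, 3, 4 and 6 lay at 3.34, 3.32, 3.05 and 3.08. Replicates 1 and 5 are among the 3 fl/fl mice of the smaller comparison, so that comparison cannot show whether the result rests on them. The mean level of T cell and natural killer cell genes was highest in fl/fl replicate 1 at 3.52, followed by AKO replicate 1 at 3.07 and fl/fl replicate 5 at 2.95. The T cell and natural killer list (24 genes, summed level 88.9 to 525 CPM in fl/fl and 190 to 415 CPM in AKO libraries) had no gene at an unadjusted p under 0.05 and a median of −0.14. Against 3 fl/fl mice its median was −0.84 and 2 genes were lower. The B cell list (19 genes) moved from −0.02 to −0.74. The part of lymphocyte number in the interferon values was not tested.

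The promoters of these genes are shown because 7 members were lower, and 11 with 3 fl/fl mice, at an unadjusted p under 0.05 and members are known to share a control element, the interferon-stimulated response element, searched as GAAA repeated after a gap of 2 bases of any kind, on either strand. Among 23 of the 29 listed genes with a promoter in the RefSeq table (GRCm38.p6), 16 (69.6%) held these letters in the 250 bases before the transcription start. The share was 3.46% of all 27025 genes. Since members are known to share the element, this excess says nothing about the genotypes. The 15 tested genes with the letters had a median log2 fold change of −0.57, 13 of them negative, and the 7 tested genes without them had −0.305, 6 of them negative. Capitals mark the element, and all 3 windows lie on the plus strand. *Gbp3* and *Gbp7* are described above, while *Ifit1* is shown as an example of the list and its level is not given here.
Gbp3, chr3:142559794-142560043: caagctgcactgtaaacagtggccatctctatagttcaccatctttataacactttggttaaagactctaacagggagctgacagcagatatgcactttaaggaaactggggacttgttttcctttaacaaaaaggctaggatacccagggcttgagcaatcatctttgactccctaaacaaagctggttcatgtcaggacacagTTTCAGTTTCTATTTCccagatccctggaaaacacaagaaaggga
Gbp7, chr3:142530086-142530335: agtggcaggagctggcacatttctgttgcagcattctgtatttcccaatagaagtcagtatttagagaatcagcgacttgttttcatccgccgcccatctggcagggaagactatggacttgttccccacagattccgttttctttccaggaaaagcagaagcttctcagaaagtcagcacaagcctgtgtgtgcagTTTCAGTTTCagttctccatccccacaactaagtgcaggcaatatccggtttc
Ifit1, chr19:34640639-34640888: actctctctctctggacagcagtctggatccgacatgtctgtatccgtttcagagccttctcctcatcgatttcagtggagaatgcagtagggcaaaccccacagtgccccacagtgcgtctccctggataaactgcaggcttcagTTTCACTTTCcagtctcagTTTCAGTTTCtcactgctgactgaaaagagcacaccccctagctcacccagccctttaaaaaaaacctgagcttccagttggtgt

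In each window the letters were found as the reverse complement, TTTC repeated after 2 bases, and *Gbp3* and *Ifit1* held 2 matches, overlapping in *Gbp3*. A match describes the letters and is not evidence that a factor was bound. *Tgtp2*, the interferon gene with the lowest fold (−2.54), was at 0 to 1.97 CPM in fl/fl and 0 to 0.25 CPM in AKO libraries and has the near-identical copy *Tgtp1*, so its value is uncertain.

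Genes of the fibrillar collagen list were on the higher side in AKO mice with and without fl/fl replicates 3, 4 and 6. The list holds 16 genes of fibrillar collagens, collagen VI and enzymes that cross-link collagen. Of these, 6 were higher and none lower at an unadjusted p under 0.05, and 13 were positive. The median was 0.39 (0.32 against 3 fl/fl mice, where 4 were higher). *Col6a3*, a collagen VI chain, was at 352 to 545 CPM (median 488) in fl/fl and 557 to 936 CPM (median 703) in AKO libraries, with no overlap (0.68, SE 0.23). *Col5a1* was at 148 to 217 CPM against 177 to 304 CPM (0.42, SE 0.15), with 5 AKO libraries above all fl/fl. *Col5a1* had nearly the same value on chow (0.39, adjusted p = 0.794), where *Col6a3* was at −0.05.

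The cross-linking enzymes *Loxl2* and *Loxl1* are on the collagen list and are among its 6 higher genes. *Loxl2* was at 27.2 to 57.3 CPM in fl/fl and 54.9 to 94.6 CPM in AKO libraries (0.63, SE 0.19), and *Loxl1* at 88.1 to 173 CPM against 100 to 176 CPM (0.44). Of 14 metalloproteinases and inhibitors 5 were higher and 2 lower at an unadjusted p under 0.05, with a median of 0.57, and with 3 fl/fl mice 1 was higher, none was lower and the median was 0.35. *Mmp11*, a stromal metalloproteinase, was at 14.9 to 53.1 CPM against 27.3 to 73.2 CPM (0.77). *Timp4*, an inhibitor made by adipocytes, was at 38.3 to 361 CPM against 12.9 to 93.2 CPM (−1.97) and at −0.41 (adjusted p = 0.906) against 3 fl/fl mice.

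Basement membrane genes were mixed. Of 10 laminin chains tested, 1 was higher at an unadjusted p under 0.05, *Lama2*, which encodes an alpha chain of muscle and stromal basement membrane, at 27.8 to 52.1 CPM in fl/fl and 43.0 to 55.3 CPM in AKO libraries (0.39, SE 0.17). The median of the list was −0.11, and with 3 fl/fl mice it was 0.08, with 2 higher, none lower and *Lama2* at 0.14. Of 20 other basement membrane genes 3 were higher and 1 lower, with a median of −0.14. With 3 fl/fl mice 4 were higher and none lower, with a median of 0.11, and on chow 5 were higher and none lower, with a median of 0.29. *Col15a1*, a collagen that links basement membrane to the fibrils around it, was at 275 to 409 CPM against 351 to 453 CPM (0.31, SE 0.13), and *Col4a2*, a chain of the collagen IV network, at 419 to 495 CPM against 464 to 652 CPM (0.30, SE 0.14).

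Both collagens had like values on chow, 0.27 for *Col15a1* and 0.29 for *Col4a2*, each at an unadjusted p under 0.05, in other mice. Of 11 laminin receptors 2 were lower at an unadjusted p under 0.05, the integrin subunit *Itga1* (−1.0) and *Mcam*, a receptor for laminin with the Lama4 chain that marks vessels (−1.20). They were at −0.16 and 0.25 against 3 fl/fl mice. The median of the receptor list was −0.37, and 0.06 with 3 fl/fl mice, where 1 was higher and none lower. Of 54 tested genes within 5 Mb of *Lama4*, 4 were higher and 1 lower at an unadjusted p under 0.05 and none was called. With 3 fl/fl mice 4 of them were higher and 4 lower.

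Stromal and vascular markers were mixed. Of 17 stromal progenitor genes 1 was higher at an unadjusted p under 0.05. It was *Col15a1*, which is also counted above among the basement membrane genes. The median of the list was 0.07, and 0.00446 with 3 fl/fl mice, where 1 was higher and 3 were lower. *Pdgfra* was at 28.1 to 69.9 CPM in fl/fl and 50.8 to 68.6 CPM in AKO libraries (0.33, adjusted p = 0.378, and 0.17 with 3 fl/fl mice). Of 22 endothelial genes 4 were lower, with a median of −0.30, and among them *Lyve1* is also on the resident macrophage list. *Cldn5*, the tight junction protein of vessels, was at 15.4 to 47.8 CPM against 8.72 to 24.8 CPM (−1.07, SE 0.35), while *Pecam1* was at 62.4 to 193 CPM against 75.9 to 163 CPM (−0.10, adjusted p = 0.847). The endothelial list was at 0.07 against 3 fl/fl mice, with *Cldn5* at −0.92 (adjusted p = 0.393) and *Pecam1* at 0.41.

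All 14 mesothelial genes were on the lower side, with a median of −0.56 and 2 at an unadjusted p under 0.05. *Msln*, which marks the covering of the fat pad, was at 1.41 to 9.48 CPM against 0.27 to 3.0 CPM (−1.57). With 3 fl/fl mice the list's median was −0.33 with no gene at an unadjusted p under 0.05, and *Msln* was at −0.92. The summed level of the list was 93.4 to 453 CPM in fl/fl and 81.8 to 184 CPM in AKO libraries. Of 19 epididymal epithelium genes only 5 were among the deposited counts and 2 were tested. Both were on the lower side, with a median of −0.93 (−0.57 with 3 fl/fl mice). With 2 genes the list cannot show whether epididymal tissue was in the samples. The estrogen sulfotransferase *Sult1e1* was at 4.67 to 35.5 CPM in fl/fl and 4.94 to 13 CPM in AKO libraries (−1.33, and −0.89 with 3 fl/fl mice). The part of tissue makeup in these values was not tested.

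Of 24 hypoxia and glycolysis genes 2 were higher and 2 lower at an unadjusted p under 0.05, with a median of −0.05 (0.09 with 3 fl/fl mice, where none was higher and 2 were lower). *Car9*, a carbonic anhydrase induced by low oxygen, was at 5.50 to 9.11 CPM (median 7.03) in AKO and 1.18 to 3.80 CPM (median 2.88) in fl/fl libraries (1.33, SE 0.47). Its groups did not overlap. *Socs3*, a feedback inhibitor of cytokine and leptin signals, was at 31.8 to 65.7 CPM against 17.4 to 40.8 CPM (0.65), and the antioxidant enzyme *Nqo1* at 3.22 to 14.6 CPM against 2.76 to 5.34 CPM (1.01). *Nqo1* was highest in AKO replicates 4 and 5, at 14.6 and 11.1 CPM. It was the 1 higher gene of 23 antioxidant genes at an unadjusted p under 0.05, 1 other was lower, and the median was 0.07.

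**Figure D4:**
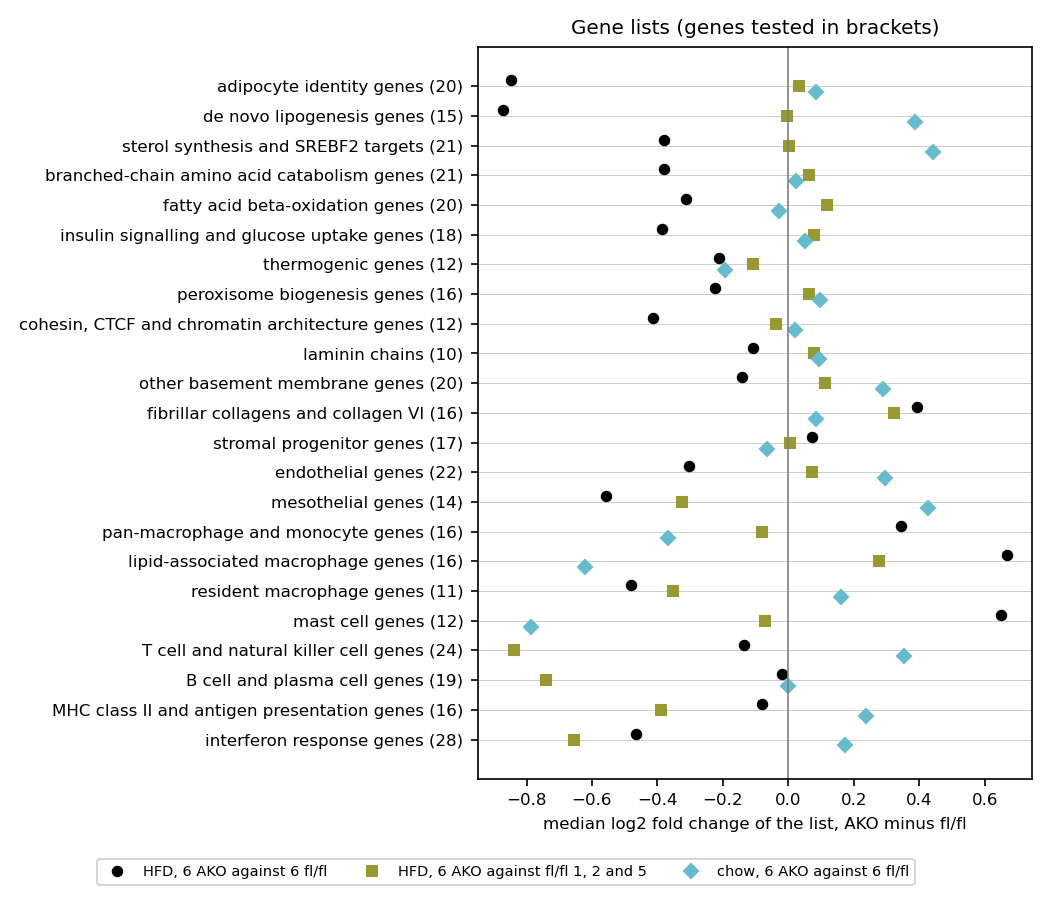
Median log2 fold change of 23 gene lists (x axis, AKO minus fl/fl), for 6 AKO against 6 fl/fl mice on HFD (circles), 6 AKO against fl/fl replicates 1, 2 and 5 on HFD (squares) and 6 against 6 mice on chow (diamonds). Adipocyte identity moved from −0.85 to 0.03 without the 3 fl/fl mice, interferon response genes from −0.47 to −0.66, and the fibrillar collagen list from 0.39 to 0.32.

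The chow-fed mice gave a separate view of the 26 called genes, since they share no animals with the HFD-fed mice. On chow 17 genes were called (0.113% of all) and 5.85% had an unadjusted p under 0.05. There 9 of the 26 had the same direction as on HFD, 3 had an unadjusted p under 0.05 and 1 of those 3 also had the same direction. The gene was *Zfp949*, a zinc finger gene on chromosome 9 (88548020 to 88571061). On HFD it was at 2.71 to 4.49 CPM (median 3.56) in fl/fl and 5.78 to 10.9 CPM (median 7.07) in AKO libraries, with no overlap. Its log2 fold change was 1.07 (SE 0.25) on HFD and 1.25 (adjusted p = 0.278) on chow, and the difference between diets was −0.18 (SE 0.35, adjusted p = 0.8).

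*Ubqln4* had opposite differences on the 2 diets. On HFD it was at 20.4 to 32.5 CPM (median 30.6) in fl/fl and 14.3 to 23.3 CPM (median 16.1) in AKO libraries (−0.72, SE 0.16), and on chow it was called higher in AKO mice (0.65, adjusted p = 0.634). The difference between the 2 log2 fold changes was −1.36 (adjusted p = 0.0499). *Lamtor3* was higher on HFD and at −0.34 on chow (adjusted p = 0.849). The difference between diets itself met the call rule in 9 of the 26 genes and in 0.386% of all genes, but the 26 were chosen on their HFD value, which is part of that difference, so nothing is read from the count.

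**Figure D5:**
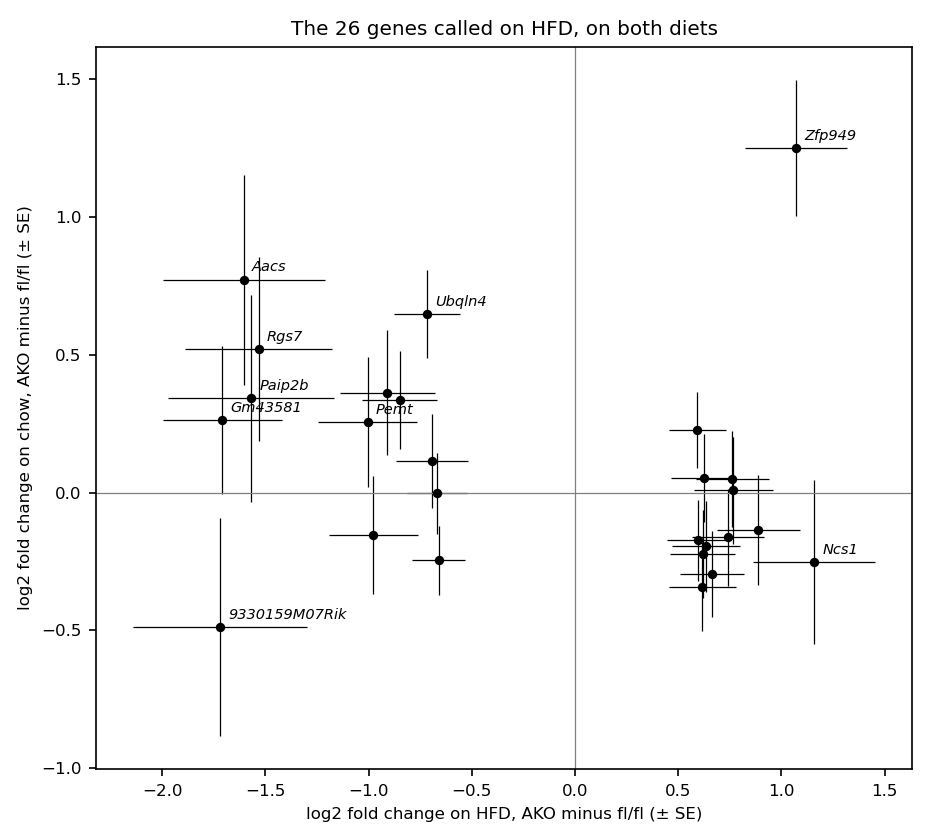
Log2 fold change between Lama4 AKO and Lama4 fl/fl mice of the 26 genes called on HFD, on HFD (x axis) and on chow (y axis), each with its standard error. Zfp949 was higher on both diets at 1.07 and 1.25, and Ubqln4 was lower on HFD at −0.72 and higher on chow at 0.65.

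The 3 called genes *Cep162*, *Zfp949* and *9330159M07Rik* lay on chromosome 9 between 87189577 and 88858870. Over all genes tested 0.173% were called. The region was centred on *Zfp949*, itself a called gene, so nothing is read from this count. Of 41 tested genes within 5 Mb of *Zfp949*, 7 were higher and 4 lower at an unadjusted p under 0.05 on HFD, with a median of 0.09. With 3 fl/fl mice 2 were higher and 4 lower, with a median of 0.02. *Cep162* was at −0.15 (adjusted p = 0.964) on chow and *9330159M07Rik* at −0.49 (adjusted p = 0.952). The transcript *Gm28586*, whose presence followed the genotype label in all HFD libraries but fl/fl replicate 2, lies on the same chromosome.

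The genes that the study itself labelled for this comparison gave 7 higher and 2 lower of 17 at an unadjusted p under 0.05, a median of 0.20 and 1 call. The study chose them on these samples, so they are not independent evidence. *Crtap*, which helps modify collagen, was at 14.4 to 26.4 CPM in fl/fl and 17.1 to 37.1 CPM in AKO libraries (0.61), and the exonuclease *Exo5* at 3.32 to 8.51 CPM against 7.97 to 9.64 CPM (0.77, and 1.20 with 3 fl/fl mice). *Srpr*, the receptor for the signal recognition particle, was at 6.2 to 48.0 CPM against 17.7 to 26.9 CPM (−0.21, adjusted p = 0.779), and *Fgfr1op2* at 22.2 to 121 CPM against 43.3 to 80.2 CPM (−0.01, adjusted p = 0.993). Against 3 fl/fl mice *Srpr* was at 1.09 (adjusted p = 0.111) and *Fgfr1op2* at 1.30 (adjusted p = 0.0981), and the median of the list was 0.81 with 14 genes higher and 3 lower.

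The number of calls rested on single mice. It fell to 13 without fl/fl replicate 4, 17 without fl/fl 6, and 15, 14 and 16 without AKO replicates 1, 4 and 5, and it was 51 without fl/fl 1, 91 without fl/fl 2, 52 without AKO 2 and 76 without AKO 6. Of the 26 genes, 7 (*Gm43581*, *Cspp1*, *Stoml2*, *Cep162*, *Ubqln4*, *Tpra1* and *Lhfp*) were called in all 12 fits that left out 1 mouse, while *Ncs1* and *Lamtor3* were called in 2 of the 12. With 6 AKO against 3 fl/fl mice all 26 had the same direction, 24 an unadjusted p under 0.05 and 6 were called, among 84 genes called in all. All of these fits reuse libraries that chose the 26 genes, so the agreement is a description and not separate evidence.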

How the data were processed

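Epididymal fat RNA of 24 mice, 1 library each, was counted by QuantSeq. The authors deposited whole counts for 16730 genes, low genes having been removed. Their methods name both the Lexogen pipeline on the Bluebee platform (mapping and count tables) and the Rsubread package (raw count matrices), without saying which made the deposited table. The deposited signal table (counts over DESeq2 size factors) was not used. Genes reaching 1 CPM in 3 or more libraries entered a quasi-likelihood model of edgeR (4.0.16) with TMM scaling, in which each diet and genotype group had its own mean. P-values were adjusted by Benjamini-Hochberg over 15020 genes. Log2 CPM used a prior count of 2. limma (3.58.1), DESeq2 (1.42.0), other filters, scalings, call limits and left-out mice served as alternatives.

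The comparison, the 51 gene lists (841 of 885 symbols matched) and the genes named were chosen with earlier results of these data known. Named genes were *Lama4*, every gene called, in each list up to 4 members of lowest p under 0.05 or else the lowest, *Gm28586*, *Zfp949*, *Cep162*, genes the study labelled, and 9 fixed markers. The text prints a selection of these. The 5 libraries left out together (HFD fl/fl 3, 4 and 6, chow fl/fl 3, chow AKO 5) are those that an earlier look at these data inferred, by eye from a published plot, to have been set aside by the study; the labels do not name them. Gene positions are from GENCODE M21 (GRCm38).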

Additional observations from a re-analysis of the deposited data

Results flagged for a closer look

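Among 294 sets of 6 libraries checked, 1 library stood apart from the other 5 in 20 sets, where its gap to the nearest neighbour, as a share of the range, exceeded Dixon's 95% critical value. Chance alone gives about 1 in 20 such sets.

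AKO replicate 6 was that library in 13 of the 20. It was high for *Lama4* (gap 0.689 of the range), *Dgat1* (0.677) and *Gbp7* (0.643) and low for *Adgre1* (0.658). Its mean level was high for adipocyte identity (0.632), lipolysis (0.705), triglyceride synthesis (0.762), branched-chain amino acid catabolism (0.668), beta-oxidation (0.858), insulin signalling (0.664), glucocorticoid response (0.752) and peroxisome genes (0.773), and low for pan-macrophage genes (0.706). Without this mouse 76 genes were called.

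Fl/fl replicate 2 was low for *Gas6* (0.881) and *Loxl2* (0.756), and AKO replicate 2 was high for *Stag2* (0.717). Fl/fl replicate 4 was high for *Fbxo10* (0.724) and low for *Car9* (0.72). AKO replicate 4 was high for hypoxia genes (0.675) and AKO replicate 1 for the genes near *Zfp949* (0.818).

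The genotype difference itself differed between diets, by the interaction term of edgeR at an unadjusted p of at most 0.001, in 14 of 94 genes considered. The HFD log2 fold change minus the chow log2 fold change was negative for *Ubqln4* (−1.36, adjusted p = 0.0499), *Plxnd1* (−1.08, adjusted p = 0.123), *Gm43581* (−1.97), *Stoml2* (−1.19), *Aacs* (−2.38), *Insig1* (−2.50), *Rgs7* (−2.05), *Wrnip1* (−1.27), *Pmvk* (−1.29), *Cd209g* (−2.13) and *Mogat2* (−3.24). It was positive for *Plekha8* (0.959), *Lamtor3* (0.957) and *Rpusd4* (0.842). Of all genes tested, 1 reached an adjusted p of at most 0.05 for this difference. The genes were named for their HFD value, which is part of the difference, so nothing is read from their number.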

How the results depend on the processing

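The number of genes called was 26. It was 24 under RLE scaling and with a mean limit in log2 CPM, 26 unfiltered and with edgeR's own filter, 30 with limma-voom, 25 from the 12 HFD libraries alone and 34 with no fold limit. It was 81 with DESeq2, 525 with limma-voom and sample weights, 8 at a fold of at least 2 and 0 at an adjusted p of at most 0.05. Leaving out 1 HFD mouse gave 13 to 91. Without the 5 libraries (HFD fl/fl 3, 4 and 6, chow fl/fl 3, chow AKO 5) it was 84, of which 6 were among the 26. Fits added after seeing the data left out 1 further HFD mouse from that set and gave 19, 303 and 72 (fl/fl 1, 2 and 5) and 53, 210, 56, 56, 44 and 65 (AKO 1 to 6). The causes were not tested.

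The replicate block, with the label number of each mouse as a term, gave 19 calls, 14 of them among the 26, and put *Fgfr1op2* at 0.10. Mice share only a number: deviations of same-numbered AKO and fl/fl mice correlated from −0.196 to 0.564.

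Without the 5 libraries the log2 fold change turned for *Lama4* (0.14), *Adipoq* (0.082), *Lep* (0.22), *Plin1* (0.15), *Fasn* (0.21), *Adgre1* (−0.28), *Pecam1* (0.41), *Mcam* (0.25), *Car3* (0.016), *Sc5d* (0.091), *Nsdhl* (0.076), *Pik3r1* (0.044), *Srpr* (1.09) and *Fgfr1op2* (1.30). limma-voom put *Srpr* at 0.17 and *Fgfr1op2* at 0.29. With 1 mouse left out *Pecam1* ranged from −0.25 to 0.019, *Srpr* from −0.42 to 0.055 and *Fgfr1op2* from −0.18 to 0.28. No other gene named in the text changed sign under these settings. With a median standard error of 0.24 log2 units, small differences were not detectable.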

Other observations

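Of 20 genes of fatty acid uptake and triglyceride synthesis, 16 were negative, 6 lower and 1 higher at an unadjusted p under 0.05 (8.99% and 5.83% of all genes), with a median log2 fold change of −0.34 and, against 3 fl/fl mice, 0.11. *Dgat2*, which makes the last step to triglyceride, was at 716 to 2710 CPM in fl/fl and 643 to 1270 CPM in AKO libraries (−0.81). *Dgat1*, the other enzyme of this step, was at 82.2 to 242 CPM against 62.9 to 151 CPM (−0.80). *Mogat2*, which makes diglyceride, was at 2.15 to 25.4 CPM against 0.63 to 4.83 CPM (−1.83). With 3 fl/fl mice these were at −0.11, −0.25 and −0.20. Of 16 genes of lipolysis and the lipid droplet 13 were negative and 1 was lower at an unadjusted p under 0.05, with a median of −0.51 that turned to 0.12 with 3 fl/fl mice. The beta-adrenergic receptor *Adrb3*, which is on the adipocyte identity and thermogenic lists, was at 26.3 to 554 CPM against 18.8 to 85.5 CPM (−2.32), and at −0.04 against 3 fl/fl mice. The groups overlapped in each of these genes.

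Complement and acute-phase genes were mixed, with 2 higher and 3 lower of 20 at an unadjusted p under 0.05 and a median of 0.13, which turned to −0.23 with 3 fl/fl mice (none higher, 2 lower). The acute-phase protein *Orm1* was at 80.1 to 472 CPM in fl/fl and 49.4 to 132 CPM in AKO libraries (−1.40, and −0.22 with 3 fl/fl mice), and *Hp*, encoding haptoglobin, at 1700 to 2610 CPM against 1020 to 1810 CPM (−0.60). The complement receptor *C5ar1* was at 27.3 to 92.8 CPM against 84.8 to 155 CPM (0.88, and 0.53 with 3 fl/fl mice). *Serping1*, an inhibitor of complement, was at 635 to 1280 CPM against 790 to 1640 CPM (0.46, and 0.31 with 3 fl/fl mice). *Ciita*, the master regulator of MHC class II genes, was at 4.73 to 9.37 CPM against 1.70 to 4.73 CPM (−1.16), while the 16 genes of antigen presentation had a median of −0.08 and 1 lower gene, and −0.39 and 4 lower genes with 3 fl/fl mice.

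*Plxnd1*, a semaphorin receptor, was at 44.5 to 60.0 CPM in fl/fl and 34.6 to 47.8 CPM in AKO libraries on HFD (−0.34) and called higher in AKO mice on chow (0.74, adjusted p = 0.278). Of 21 proliferation genes 19 were positive on HFD, with a median of 0.45 and 1 at an unadjusted p under 0.05, and the median was 0.12 with 3 fl/fl mice. Lists of proteasome subunits (34 genes), the unfolded protein response (24) and circadian clock genes (18) had medians of 0.01, 0.03 and 0.03 (0.04, 0.10 and 0.06 with 3 fl/fl mice). The mitochondrially encoded *mt-Nd2* was at 5000 to 21100 CPM against 5120 to 10100 CPM (−0.88) and at −0.07 against 3 fl/fl mice.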
